A study of Homo sapiens with 6 samples.

Results

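The human zinc-finger transcription factors named for a SCAN domain (ZSCAN and ZKSCAN genes) or a BTB domain (ZBTB genes) were followed in 293T cells after transfection of a miR-941 mimic. Members were chosen by symbol, as genes beginning with ZSCAN, ZKSCAN or ZBTB and a digit that had at least 1 count in any library, and 6 pseudogenes among the 77 matches were left out. Of the remaining 71 genes, 65 were protein-coding members of the families, 28 in the SCAN family and 37 in the BTB family, out of 26613 genes listed. The other matches were 5 RNA genes that carry a member's name and ZBTB8OS, the archease gene, which lies opposite ZBTB8A and encodes no zinc finger. The values behind the choice were the symbols and the presence of a count, but the pair of families was put forward with results of these data known, so the family counts below are a description.

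The 6 libraries of rRNA-depleted RNA were 3 from cells given the miR-941 duplex (mimic) and 3 from cells given a scrambled oligonucleotide (mock). Both groups were the same line, 293T, a derivative of human embryonic kidney 293 cells. Both were plated 24 h before transfection and transfected with a cationic lipid reagent, with the mimic at 10 nM. The sources used here do not give the dose of the scrambled oligonucleotide or the time from transfection to lysis. The labels describe independent replicate transfections of this 1 line, so the spread between libraries is that of repeated transfections, and an oligonucleotide's dose cannot be told apart from its sequence.

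A SCAN domain is a short leucine-rich segment, found in vertebrates, through which zinc-finger proteins form homodimers and heterodimers with each other. ZKSCAN proteins carry in addition a KRAB domain, which in many zinc-finger proteins, though not in all, recruits the corepressor TRIM28. A BTB domain, also called POZ, likewise dimerizes, and in many zinc-finger proteins it also binds the corepressors NCOR1 or BCOR or the ubiquitin ligase scaffold CUL3. Proteins of both families bind DNA through C2H2 zinc fingers at the C-terminal end, and many act as transcriptional repressors.

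The mature miR-941 sequence and 3 matches to its seed found among members are shown because they are what a transfected duplex could pair with directly. The microRNA is taken from RefSeq (GRCh38.p14), where the same mature sequence occurs in 5 hairpins on chromosome 20, and its capitals mark the seed, bases 2 to 8. The other lines are 30-base windows of members' longest annotated 3′ UTRs in GENCODE release 29 (GRCh38), written 5′ to 3′ on the gene's strand, and their capitals mark GCCGGGT, the 7-base match to the seed.
miR-941: cACCCGGCugugugcacaugugc
ZBTB37 site, chr1:173891635-173891664, plus strand: tccttgcaggaaGCCGGGTgtgacagcaga
ZBTB44 site, chr11:130233882-130233911, minus strand: taaacaaaaaaaGCCGGGTgggagggaggg
ZBTB46 site, chr20:63746574-63746603, minus strand: gatgggcctgtgGCCGGGTccagtgggcac

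Total counts were 6401918 to 7651046 in mimic libraries and 6079420 to 7405330 in mock libraries, so that 3 counts correspond to 0.392 to 0.493 CPM, the count scaled to library size with TMM factors. Of 15607 genes tested with edgeR's quasi-likelihood test, 13.0% had a Benjamini-Hochberg adjusted p under 0.05, which is what "rose", "fell" and "passed" refer to below, with 6.8% higher and 6.19% lower in mimic. In a principal component analysis the third mimic library lay at -18.9 on component 2, and the other mimic libraries at 8.44 and 13.6. The third mock library lay at 18.6 on component 3, and the other mock libraries at -11.6 and -8.31. Of 7 markers of 293 cells, 5 had counts, PAX2 and EYA1 among them, and LHX1 and NEFL had none. The summed CPM of the 4 tested was 139 to 141 in mimic libraries and 104 to 112 in mock libraries. Of that list NEFM, a neurofilament gene that this line expresses, rose (81.8 ± 2.90 CPM in mimic and 55.9 ± 2.14 CPM in mock, SD, n = 3 each). Of 6 fibroblast markers 2 were tested, COL1A1 and LUM, summing to 38.0 to 43.0 CPM in mimic and 37.7 to 40.1 CPM in mock, and COL1A2 had 1 count in all. Of 6 blood markers only CD14 was tested (1.42 to 2.51 CPM in mimic and 1.64 to 2.98 CPM in mock), and PTPRC and HBB had no count. Hepatocyte markers were too low to be tested. In bulk RNA, a change in every cell and a change in a part of the cells cannot be told apart.

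Most members were expressed in 293T cells, at levels close to those of other genes. A low-count filter left 59 of the 65 for testing, 23 SCAN and 36 BTB genes. The median level per length over tested members, in CPM per kb of exons averaged over the 6 libraries, was 5.92 for SCAN genes and 5.84 for BTB genes, beside 6.46 for all genes tested and 3.70 for 443 tested genes with a ZNF number. The highest SCAN genes per length were ZSCAN16 (14.2 ± 0.791 CPM per kb in mimic and 16.5 ± 0.853 in mock), ZKSCAN8 (13.1 ± 0.673 in mimic and 12.5 ± 0.190 in mock) and ZSCAN26 (11.3 ± 0.565 in mimic and 11.0 ± 1.06 in mock). The highest BTB genes were ZBTB18, a repressor needed for neuron formation in the cortex (20.7 ± 0.495 CPM per kb in mimic and 22.8 ± 0.932 in mock), ZBTB33, the methyl-CpG binding protein Kaiso (20.2 ± 0.606 in mimic and 19.8 ± 0.162 in mock), and ZBTB2 (19.5 ± 1.79 in mimic and 20.3 ± 0.984 in mock). These 3 could not be ordered in mimic libraries, where their intervals of 1 SD overlap.

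At the other end, 6 members were at or near the limit of detection and were not tested. ZSCAN4, which in mouse embryonic stem cells marks a transient state like that of the early embryo, had 2, 1 and 2 counts in mimic and 2, 0 and 1 in mock. ZSCAN10, a pluripotency factor of mouse embryonic stem cells, had 0, 1 and 0 counts in mimic and 2, 0 and 1 in mock. ZSCAN1 had its only count in the third mock library, and ZSCAN5B had 3 counts there and none elsewhere. ZSCAN5C had 0, 1 and 1 counts in mimic and 0, 1 and 0 in mock, and ZBTB32, a repressor of activated lymphocytes, had 4, 7 and 1 in mimic and 3, 7 and 5 in mock. At this depth no difference could be seen in any of these genes. The lowest tested member per length was ZBTB20, the liver repressor of alpha-fetoprotein, at 0.0417 ± 0.00579 CPM per kb in mimic and 0.0490 ± 0.0167 in mock. The long exon annotation of ZBTB20, 31872 bases, lowers that per-length value.

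**Figure D1:**
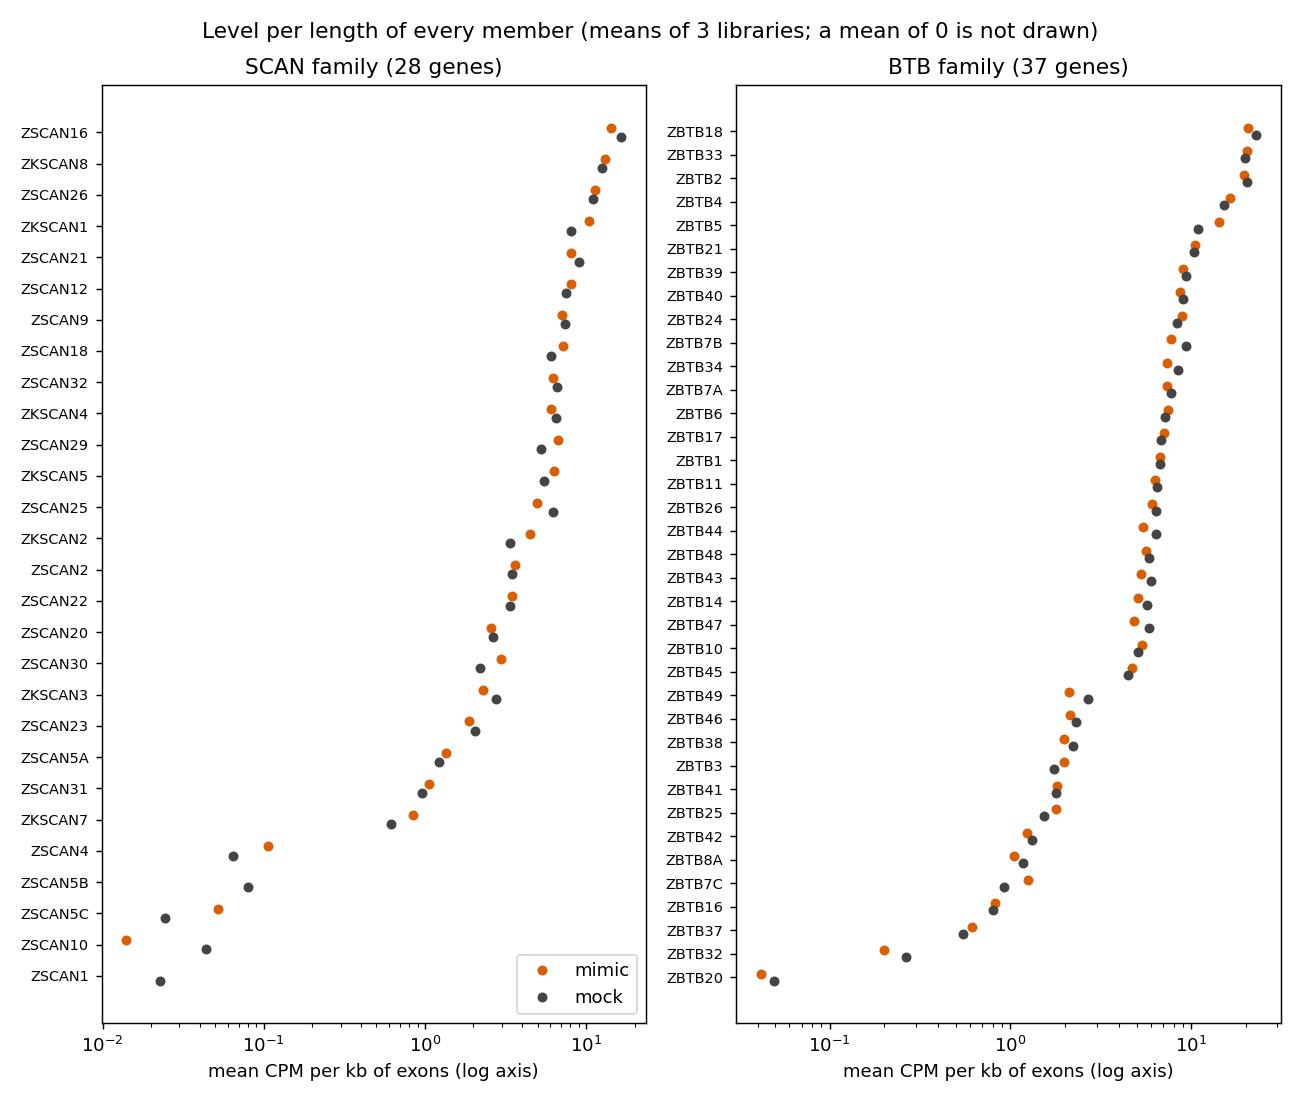
Mean level of every member per length, in CPM per kb of exons on a log axis, for 28 SCAN genes (left panel) and 37 BTB genes (right panel), with mimic in orange and mock in grey (means of 3 libraries each). Tested members have medians of 5.92 (SCAN) and 5.84 (BTB), the 6 members not tested and ZBTB20 lie at the low end, and the groups lie close together for nearly every tested gene.

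Among SCAN genes that passed the test more rose than fell, and the share of BTB genes that passed was near that of all genes. In the SCAN family 5 of 23 tested genes rose and 1 fell, 26.1% in all, beside 13.0% of all genes. In the BTB family 1 of 36 tested genes rose and 3 fell, 11.1% in all. The share that rose was 21.7% of SCAN genes and 2.78% of BTB genes, beside 6.8% of all genes, and the share that fell was 4.35% of SCAN genes and 8.33% of BTB genes, beside 6.19% of all genes. DESeq2's Wald test with the same adjustment called 4 SCAN genes higher and 1 lower, 1 BTB gene higher and no BTB gene lower (3 were lower at an unadjusted p under 0.05). Without the first mock library, edgeR called 3 SCAN genes higher and none lower (3 were lower at an unadjusted p under 0.05) and 1 BTB gene higher and 1 lower. Without the third mock library BTB calls were also 1 higher and 1 lower, and without the third mimic or the second mock library they were 2 higher and 1 lower. The BTB shares are near those of all genes, and which direction had more calls depended on the library left out. The difference between the families was not tested, because their genes are not replicates of a condition.

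The sizes of change were small in both families. The median log2 fold change (mimic over mock) was 0.06 over SCAN genes, with an interquartile range of -0.10 to 0.22, and 14 of 23 were above 0. Over BTB genes it was -0.06, with an interquartile range of -0.17 to 0.06, and 15 of 36 were above 0. Leaving out single libraries moved the SCAN median to 0.104 (without the second mock library) or 0.028 (without the third) and its BTB counterpart to -0.015 (without the second mock library) or -0.026 (without the first). The median over all genes tested was 0.00, and over ZNF-numbered genes 0.12. Of those 443 ZNF-numbered genes 92 passed (20.8%), with 20.1% rising and 0.677% falling, a split in the same direction as that of the SCAN genes. The extremes reached 0.45 and -0.33 in the SCAN family and 0.45 and -0.34 in the BTB family. Groups did not overlap in 7 SCAN genes that were higher and 2 that were lower in mimic, and in 3 BTB genes that were higher and 7 that were lower. Among all genes tested, groups did not overlap in 14.4% that were higher and 13.9% that were lower.

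**Figure D2:**
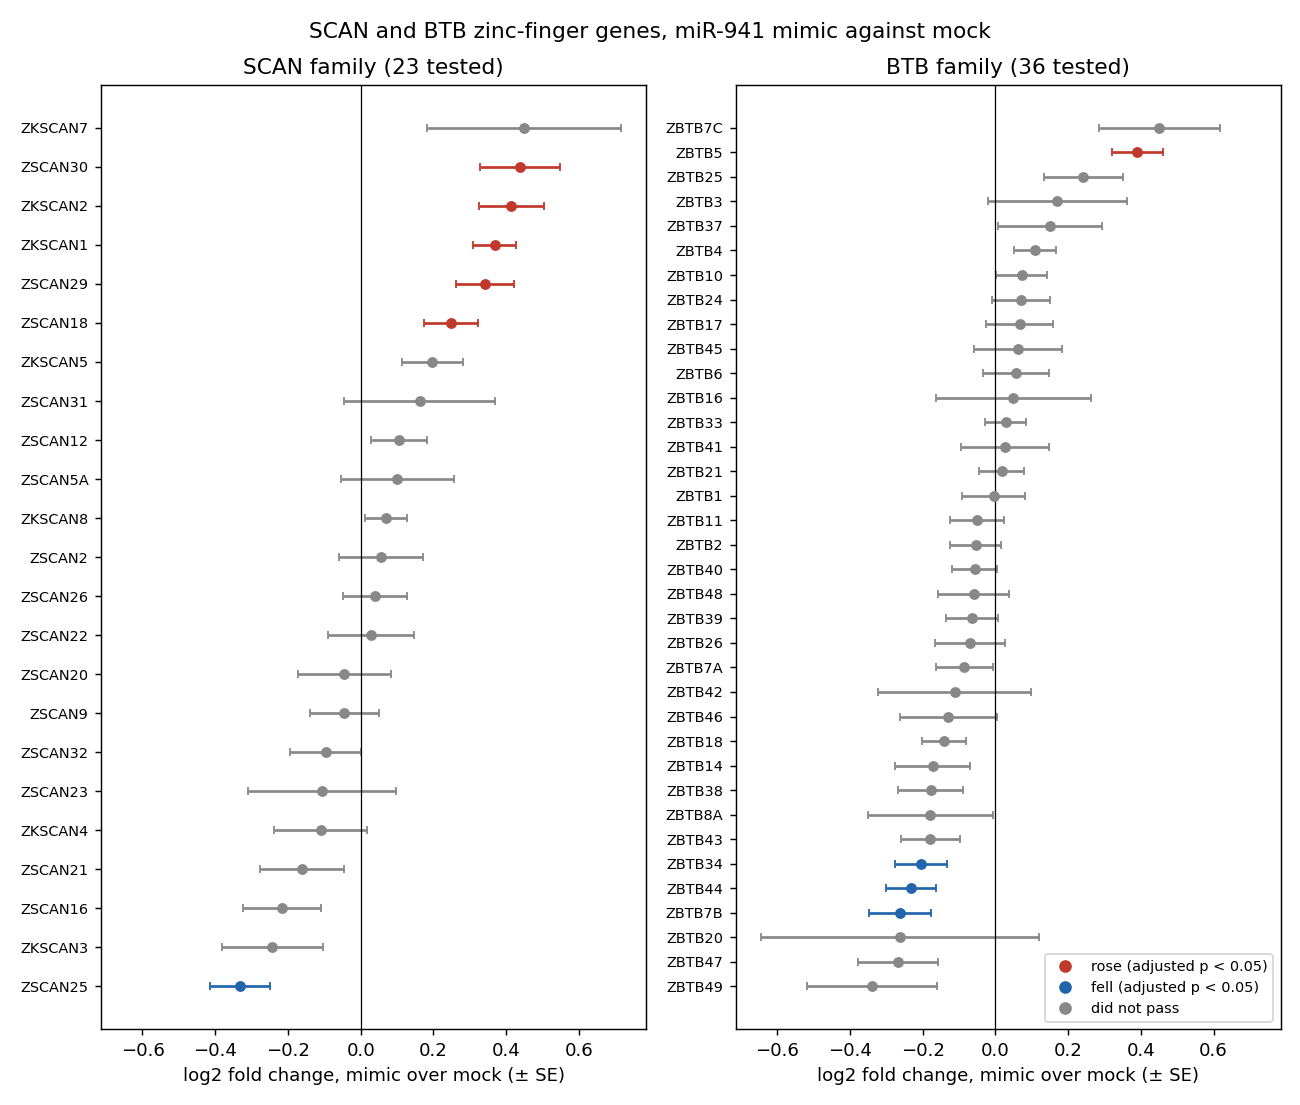
Log2 fold change of each tested member, mimic over mock, with its standard error, for SCAN genes (left) and BTB genes (right), ordered by size, with genes that rose in red, genes that fell in blue and the others in grey. SCAN genes run from -0.33 to 0.45 with 5 rises and 1 fall, and BTB genes run from -0.34 to 0.45 with 1 rise and 3 falls.

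Within the SCAN family the KRAB-bearing ZKSCAN genes had the higher median. Of 7 tested ZKSCAN genes 2 rose and the other 5 did not pass, and their median log2 fold change was 0.20. That median is the value of 1 gene, ZKSCAN5, which did not pass. The value of ZKSCAN5 was 0.182 to 0.216 when single libraries were left out. Of 16 tested ZSCAN genes 3 rose and 1 fell, with a median of 0.03. The shares that passed were close, 2 of 7 ZKSCAN and 4 of 16 ZSCAN genes, beside 13.0% of all genes. Of all genes 6.8% rose and 6.19% fell. The difference between the ZKSCAN and ZSCAN medians was not tested. The plot of medians sets both beside the wider classes. The other genes with a SCAN domain but another name had a median of 0.05, which was 0.111 without the first mock library and 0.029 without the second. The other BTB zinc-finger genes had 0.12, which was 0.192 without the first mimic library, 0.047 without the second, 0.043 without the third and 0.019 without the first mock library.

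**Figure D3:**
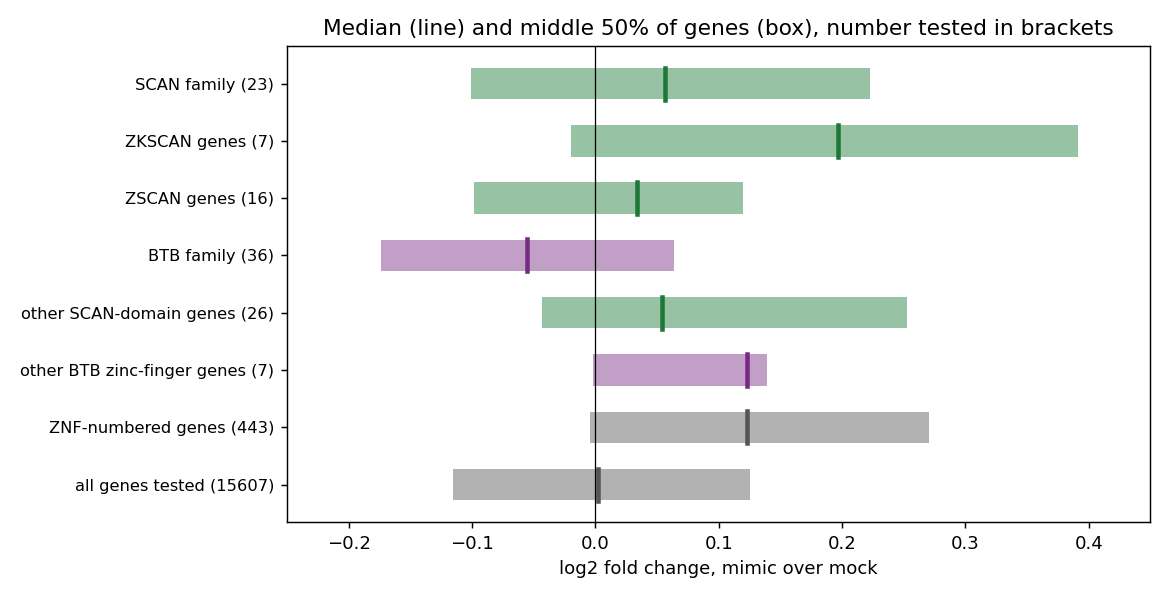
Median log2 fold change, mimic over mock (line), and the interquartile range (box) for the SCAN family, its ZKSCAN and ZSCAN genes, the BTB family, other SCAN-domain and BTB zinc-finger genes, ZNF-numbered genes and all genes tested, with the number tested in brackets. The medians are 0.06 for SCAN genes, -0.06 for BTB genes, 0.12 for ZNF-numbered genes and 0.00 for all genes.

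Summing CPM over tested members gave 712, 715 and 697 in mimic libraries and 642, 668 and 652 in mock libraries for the SCAN family. Every mimic sum was above every mock sum. For the BTB family the sums were 1347, 1318 and 1366 in mimic and 1347, 1401 and 1353 in mock, and the groups overlapped. Without ZKSCAN1, the gene with the most counts among those that rose, the sums were 602, 609 and 589 in mimic and 560, 580 and 571 in mock, and the groups still did not overlap. Over the 17 SCAN genes that did not pass, the sums were 407, 401 and 394 in mimic and 385, 404 and 399 in mock, and the groups overlapped. The 32 BTB genes that did not pass summed to 1129, 1116 and 1160 in mimic and 1135, 1176 and 1138 in mock. Both of these sets leave out the genes called in these same libraries, so how close their groups lie follows in part from that choice.

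**Figure D4:**
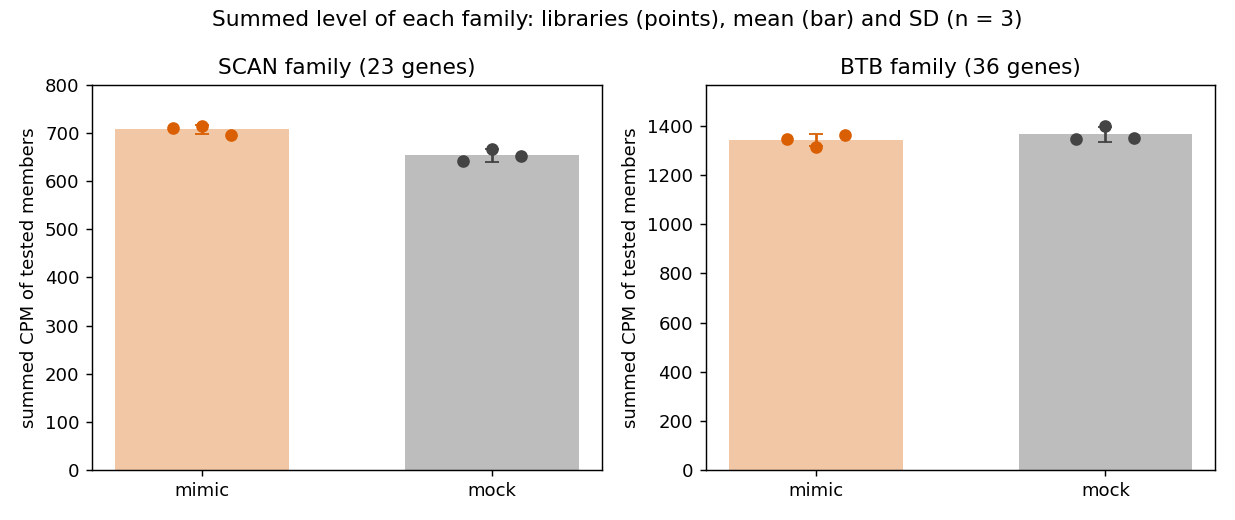
Summed CPM of the tested members in each library (points) with mean (bar) and SD, for 23 SCAN genes (left) and 36 BTB genes (right), mimic in orange and mock in grey. SCAN sums are 697 to 715 in mimic and 642 to 668 in mock, and BTB sums are 1318 to 1366 in mimic and 1347 to 1401 in mock.

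Among the SCAN genes that rose, ZKSCAN1 (ENSG00000106261, chr7:100015572-100041689, plus strand, GRCh38) had the smallest adjusted p. It is a KRAB and SCAN zinc-finger gene whose exons also give rise to an abundant circular RNA. It had 110, 106 and 108 CPM in mimic libraries and 81.5, 87.9 and 81.3 CPM in mock libraries. All mimic values lay above all mock values, by more than the range within either group. Its log2 fold change was 0.37 ± 0.06 (SE), or 1.29-fold, and the adjusted p was 2.1e-06 (edgeR's quasi-likelihood test). Gene counts from rRNA-depleted RNA do not separate the linear from the circular transcript.

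ZKSCAN2 (ENSG00000155592, chr16:25236001-25257931, minus strand), the other ZKSCAN gene that rose, had 36.5, 34.8 and 36.0 CPM in mimic and 28.2, 25.9 and 26.4 CPM in mock. Its groups were well apart. On the log2 scale the fold change was 0.41 ± 0.09, with an adjusted p of 0.000442 by edgeR. ZSCAN29 (ENSG00000140265, chr15:43358172-43371025, minus strand) had 42.2, 44.8 and 45.6 CPM in mimic and 35.8, 34.3 and 34.3 CPM in mock. It too was higher in every mimic library, by 0.34 ± 0.08 on the log2 scale (adjusted p 0.00143 by edgeR). ZSCAN29 shares 102 exonic bases with TUBGCP4 on the opposite strand, which had 180% of its level and a log2 fold change of -0.11. ZKSCAN1, ZKSCAN2 and ZSCAN29 passed in all 13 alternative analyses.

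ZSCAN30 (ENSG00000186814, chr18:35251058-35290245, minus strand) had 25.7, 24.6 and 22.8 CPM in mimic and 15.5, 21.1 and 17.5 CPM in mock. The groups did not overlap, and the first mock library was the lowest. The log2 fold change was 0.44 ± 0.11, with an adjusted p of 0.00328 by edgeR, and without that library the adjusted p was 0.0792. ZSCAN30 overlaps ZNF397, another SCAN-domain gene on the opposite strand, over 244 exonic bases, and ZNF397 had 131.6% of its level and a log2 fold change of 0.31. The sources used here do not say whether counting took account of strand, so reads of the pair cannot be told apart there.

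ZSCAN18 (ENSG00000121413, chr19:58083838-58118427, minus strand) had 55.4, 67.2 and 57.3 CPM in mimic and 47.1, 51.2 and 53.6 CPM in mock. The groups did not overlap, and the second mimic library was the highest. Its log2 fold change was 0.25 ± 0.07, with an adjusted p of 0.0163 by edgeR. The call was lost without the second mimic library (0.232) or the first mock library (0.151) and by DESeq2 (0.115). ZSCAN18 shares 2091 exonic bases with ZNF135 on the opposite strand, which had 75.4% of its level and rose with a log2 fold change of 0.42.

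ZSCAN25 (ENSG00000197037, chr7:99616946-99632407, plus strand) was the only SCAN gene that fell among those tested. It had 34.7, 37.3 and 33.1 CPM in mimic and 48.4, 43.2 and 40.2 CPM in mock. Every mimic library was below every mock library, and the first mock library was the highest. On the log2 scale the fold change was -0.33 ± 0.08, with an adjusted p of 0.00304 by edgeR, and 0.0797 without the first mock library. ZSCAN25 lies on chromosome 7 near ZKSCAN5 and ZKSCAN1, which had log2 fold changes of 0.20 and 0.37, and ZSCAN21, on the same chromosome, had -0.16.

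**Figure D5:**
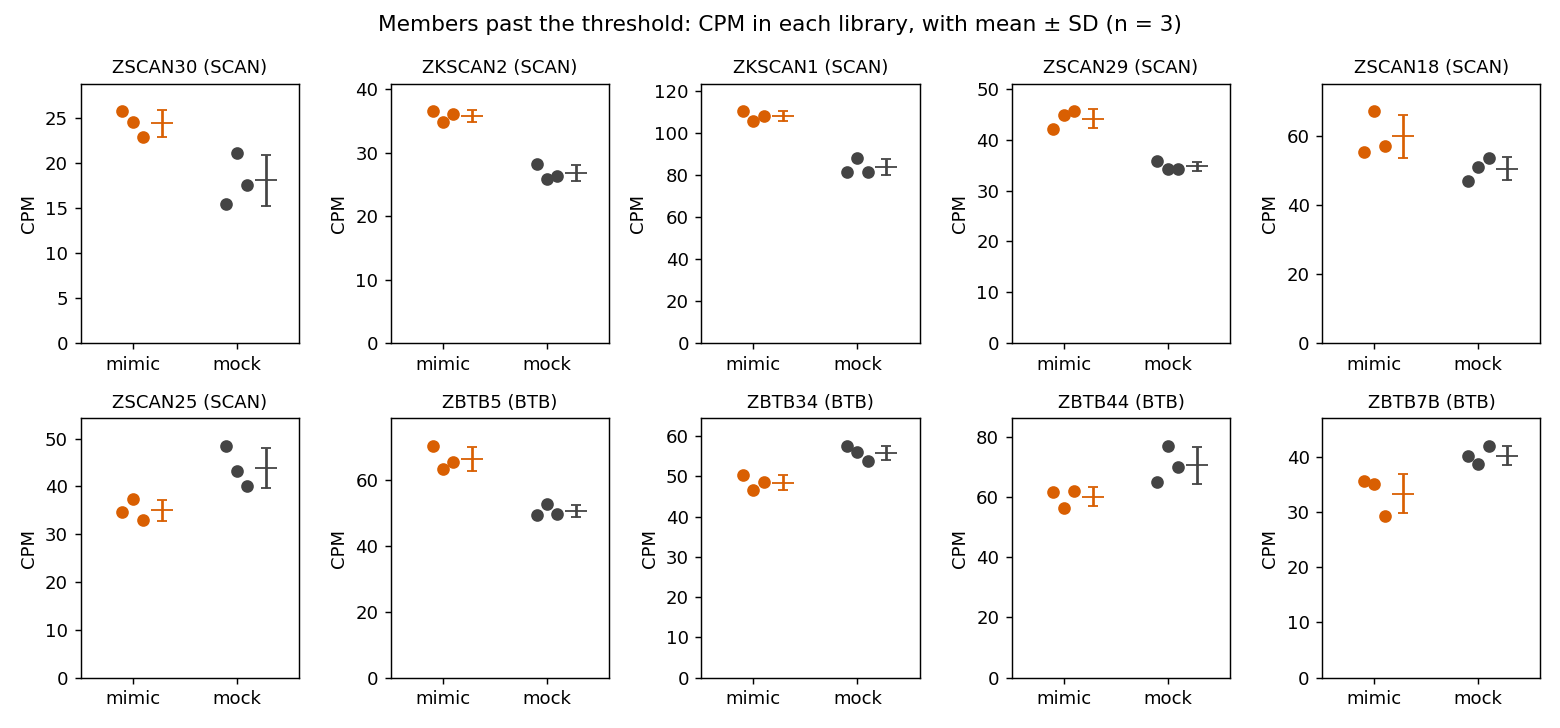
CPM in each library (points), with mean and SD beside them (n = 3), for the 6 SCAN and 4 BTB genes that passed, mimic in orange left of mock in grey, each axis starting at 0. No gene's groups overlap, and the gap is widest against the spread in ZKSCAN1, ZKSCAN2, ZSCAN29 and ZBTB5.

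Among SCAN genes that did not pass, ZKSCAN5 came nearest. It had 37.3, 38.7 and 38.9 CPM in mimic and 33.5, 33.9 and 32.6 CPM in mock, groups that did not overlap, and a log2 fold change of 0.20 ± 0.08 with an adjusted p of 0.110 by edgeR. ZSCAN16, with the family's highest level per length, had 19.8, 17.7 and 19.2 CPM in mimic and 21.0, 23.2 and 21.6 CPM in mock, also without overlap, and an adjusted p of 0.191. ZKSCAN3, known as a repressor of autophagy and lysosome genes, had 11.6, 11.0 and 10.7 CPM in mimic and 11.5, 12.8 and 15.6 CPM in mock. Its groups overlapped, and the log2 fold change was -0.24 ± 0.14 with an adjusted p of 0.274 by edgeR. ZKSCAN7 had the largest fold change of the SCAN genes but few counts, at 3.53 ± 0.353 CPM in mimic and 2.60 ± 0.628 CPM in mock, with an adjusted p of 0.300 by edgeR (95% interval of the log2 fold change -0.08 to 0.97). ZKSCAN8 had 99.3 ± 5.09 CPM in mimic and 94.7 ± 1.44 CPM in mock, with an interval of -0.04 to 0.18. The remaining SCAN genes had log2 fold changes between -0.16 (ZSCAN21) and 0.16 (ZSCAN31).

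Several SCAN genes share sequence or exons with others, which limits what gene counts can say of them. ZKSCAN3 and ZKSCAN4 lie on the same chromosome, with other SCAN genes between them, and share identical stretches. Of 100-base windows, 1.76% of those of ZKSCAN3 and 3.82% of those of ZKSCAN4 occur in the other. ZSCAN5A and ZSCAN5C share 171 windows, which are 9.54% of those of ZSCAN5C. ZSCAN21 overlaps ZNF3 over 880 exonic bases, and ZNF3, on the other strand, had 285% of its level.

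In all, 9 tested SCAN genes lie in a cluster on chromosome 6 (chr6:28124560-28443502, GRCh38), and none of them passed. They are ZSCAN16, ZKSCAN8, ZSCAN9, ZKSCAN4, ZSCAN26, ZSCAN31, ZKSCAN3, ZSCAN12 and ZSCAN23. With edgeR 0 of the 9 passed and 1 was lower at an unadjusted p under 0.05, and DESeq2 called 0. Since 13.0% of all genes passed, 0 of 9 is near the background. Their median log2 fold change was -0.05, and it was above 0 without the first mimic library (0.020), the second mimic library (0.0030) or the second mock library (0.082). Their summed CPM was 268, 256 and 252 in mimic and 246, 263 and 264 in mock. The 14 SCAN genes elsewhere held all 5 rises and the fall, with a median of 0.15 and summed CPM of 444, 459 and 445 in mimic and 396, 405 and 388 in mock. This split by location was made after the values were seen, and the difference between its sides was not tested.

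Of the BTB genes, ZBTB5 (ENSG00000168795, chr9:37438114-37465399, minus strand) was the one that rose. It has been described as a repressor that binds the promoter of the cell cycle inhibitor CDKN1A. It had 70.3, 63.3 and 65.5 CPM in mimic and 49.4, 52.8 and 49.7 CPM in mock. All mimic values were above all mock values. The log2 fold change was 0.39 ± 0.07, or 1.31-fold, and the adjusted p was 2.17e-05 (edgeR's quasi-likelihood test), and ZBTB5 passed in all 13 alternatives.

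The 3 BTB genes that fell did so by less, and none of them passed in every alternative. ZBTB44 (ENSG00000196323, chr11:130226677-130314908, minus strand) had 61.7, 56.4 and 62.0 CPM in mimic and 64.8, 76.9 and 69.8 CPM in mock. The groups did not overlap, and the second library of each group was the most extreme. Its log2 fold change was -0.23 ± 0.07 with an adjusted p of 0.0149 by edgeR, lost without the second mimic library (0.0966) or the second mock library (0.190) and by DESeq2 (0.0921). ZBTB7B, known as ThPOK, which directs T cells to the CD4 lineage (ENSG00000160685, chr1:155002630-155018522, plus strand), had 35.7, 35.1 and 29.3 CPM in mimic and 40.1, 38.7 and 42.0 CPM in mock. The third mimic library was the lowest of all. On the log2 scale the fold change was -0.26 ± 0.08 with an adjusted p of 0.0285 by edgeR, and the p was 0.169 without the third mimic library, 0.0788 without the first mock library, 0.124 without the third mock library and 0.132 by DESeq2.

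ZBTB34 (ENSG00000177125, chr9:126860665-126885878, plus strand) had 50.2, 46.5 and 48.6 CPM in mimic and 57.5, 56.0 and 53.9 CPM in mock. The groups were apart, and no single library stood out. The log2 fold change was -0.21 ± 0.07 with an adjusted p of 0.0452 by edgeR, just under the threshold. It was 0.0522 to 0.180 when any 1 library was left out, 0.0536 with no filter on low counts, 0.0575 with replicate number as a block and 0.176 by DESeq2.

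The BTB genes nearest the threshold lay on both sides of 0. ZBTB7C, a relative of ZBTB7A and ZBTB7B, had 9.89, 10.6 and 8.34 CPM in mimic and 6.10, 8.48 and 6.56 CPM in mock. The groups overlapped only between the lowest mimic and the highest mock library, and the log2 fold change of 0.45 ± 0.17 had an adjusted p of 0.0623 by edgeR, which was 0.0255 without the third mimic library and 0.0269 without the second mock library. ZBTB47 had 16.9, 20.4 and 17.6 CPM in mimic and 21.4, 21.7 and 23.1 CPM in mock, a log2 fold change of -0.27 ± 0.11 (adjusted p 0.0963 by edgeR, and 0.0469 without the second mimic library). ZBTB18 had 80.7, 78.9 and 82.8 CPM in mimic and 89.4, 92.3 and 85.1 CPM in mock. It was lower in every mimic library, with a log2 fold change of -0.14 ± 0.06 (adjusted p 0.120 by edgeR).

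The proteins that read methylated CpG, ZBTB33, ZBTB4 and ZBTB38, did not pass. ZBTB33 had 104, 110 and 108 CPM in mimic and 105, 105 and 106 CPM in mock, and its log2 fold change of 0.03 had a 95% interval of -0.08 to 0.14. ZBTB4 had 97.8, 100 and 102 CPM in mimic and 89.2, 90.9 and 98.7 CPM in mock (log2 fold change 0.11, adjusted p 0.238 by edgeR). ZBTB38 had 27.6, 28.5 and 28.5 CPM in mimic and 33.0, 32.5 and 29.8 CPM in mock. It was lower in every mimic library, at -0.18 with an adjusted p of 0.201 by edgeR.

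Members with known roles in blood formation and lineage choice did not pass, apart from ZBTB7B. ZBTB7A, the repressor LRF that silences fetal globin, had 39.6, 40.9 and 45.5 CPM in mimic and 41.2, 46.9 and 45.2 CPM in mock, with an interval of the log2 fold change of -0.24 to 0.07. ZBTB16, the PLZF protein of innate-like lymphocytes and spermatogonia, was low, at 5.25 ± 1.76 CPM in mimic and 5.09 ± 0.639 CPM in mock, and the interval of its log2 fold change was wide, -0.37 to 0.47. ZBTB17, known as MIZ1, which MYC binds to repress targets, had 30.0 ± 2.75 CPM in mimic and 28.8 ± 0.638 CPM in mock. ZBTB46, a marker of classical dendritic cells, had 12.9 ± 1.44 CPM in mimic and 14.0 ± 1.87 CPM in mock, and ZBTB1, needed for lymphocyte development in mice, 35.5 ± 2.17 CPM in mimic and 35.5 ± 3.12 CPM in mock.

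Members tied to chromosome maintenance also showed no change that passed. ZBTB24, mutated in a form of the ICF immunodeficiency syndrome, had 45.6, 45.3 and 56.4 CPM in mimic and 48.0, 48.7 and 42.3 CPM in mock. The third mimic library was the highest, and the groups overlapped. ZBTB48, the telomere-binding protein TZAP, had 25.4 ± 0.939 CPM in mimic and 26.5 ± 2.82 CPM in mock, and ZBTB10, which binds variant telomere repeats, 54.4 ± 1.66 CPM in mimic and 51.8 ± 0.820 CPM in mock. ZBTB20 had 1.33 ± 0.185 CPM in mimic and 1.56 ± 0.533 CPM in mock, and the interval of its log2 fold change was -1.01 to 0.49, the widest of the tested members. For ZBTB20, 46.0% of 100-base windows also occur in an overlapping gene model, so its count is uncertain.

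The other BTB genes ranged in log2 fold change from -0.34 (ZBTB49) to 0.24 (ZBTB25). ZBTB25 overlaps MTHFD1 on the opposite strand, which had 912% of its level, so its counts without strand are uncertain. ZBTB43 had 37.4 ± 3.64 CPM in mimic and 42.4 ± 0.892 CPM in mock, with an adjusted p of 0.146 by edgeR. ZBTB40 had 79.7 ± 2.24 CPM in mimic and 82.9 ± 2.26 CPM in mock, and ZBTB21 85.1 ± 5.66 CPM in mimic and 83.8 ± 2.26 CPM in mock. Of the genes that carry a member's name without being one, the antisense RNA ZBTB11-AS1 had 7.46 ± 0.410 CPM in mimic and 6.43 ± 1.66 CPM in mock, and ZBTB8OS had 23.5 ± 3.10 CPM in mimic and 23.5 ± 1.13 CPM in mock. The other 4 RNA genes had too few counts to be tested.

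Seed matches were found in 4 of 36 tested BTB genes (11.1%) and 0 of 23 SCAN genes, beside 634 of 13015 tested genes with a 3′ UTR (4.87%). The search used the longest annotated 3′ UTR, on the transcript's own strand, and BTB genes had longer ones. The median was 2853 bases for BTB genes, 1676 bases for SCAN genes and 1401 bases for all genes tested. The shares are not adjusted for this length. Of the 3 genes whose matches are shown, ZBTB44 fell, and its match begins at base 364 of 7585 in the last exon. The match in ZBTB46 begins at base 339 of 3264, and ZBTB46 had a log2 fold change of -0.13 with an adjusted p of 0.600 by edgeR. The match in ZBTB37 begins at base 5523 of 17425, and ZBTB37 had a log2 fold change of 0.15 with an adjusted p of 0.561 by edgeR. None of the 3 matches shown is followed by an A. A match describes the letters of a window and is not evidence of binding, and ZBTB7B, ZBTB34 and ZSCAN25, which also fell, hold no match in theirs.

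Beyond the seed matches, the families differed in make-up. Zinc fingers were counted as matches to a C2H2 pattern in the translated longest coding sequence, so atypical fingers can be missed. Tested SCAN genes had a median of 6 such matches (2 to 14) and BTB genes 4 (2 to 14), beside 11 in ZNF-numbered genes. The median exonic length was 4957 bases in SCAN genes and 5904.5 bases in BTB genes, and the median GC content 47.2% in SCAN genes and 43.3% in BTB genes. With per-gene offsets for GC content and length, the counts of members called were 6 for SCAN and 4 for BTB, as without them.

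Other genes with the same domains were counted from lists of those that do not carry a family symbol. Of 26 tested genes with a SCAN domain, 5 rose and none fell by edgeR (1 was lower at an unadjusted p under 0.05), beside 6.8% of all genes that rose and 6.19% that fell. DESeq2 called 2 higher and 0 lower, with none lower at an unadjusted p under 0.05, and edgeR called 2 higher without the second mimic, the first mock or the second mock library. ZNF232 had 23.6, 25.8 and 23.5 CPM in mimic and 18.3, 15.8 and 14.8 CPM in mock, well apart, with a log2 fold change of 0.57 ± 0.11 (adjusted p 9.21e-05 by edgeR). ZNF444 had 41.6 ± 2.54 CPM in mimic and 32.7 ± 4.46 CPM in mock. ZNF397, the gene opposite ZSCAN30, had 30.8 ± 1.44 CPM in mimic and 25.03 ± 2.33 CPM in mock, and SCAND1, a SCAN protein without zinc fingers, 45.2 ± 2.04 CPM in mimic and 37.8 ± 4.16 CPM in mock. MZF1, a regulator of myeloid genes, was the other rise, with 32.6 ± 2.05 CPM in mimic and 27.0 ± 3.33 CPM in mock. The groups of MZF1 overlapped. The calls of ZNF397, SCAND1 and MZF1 were lost by DESeq2 (adjusted p 0.126, 0.130 and 0.175) and, among other single libraries, without the first mock library (0.123, 0.155 and 0.178). Of 7 tested BTB zinc-finger genes with other names, BCL6 among them, none passed by edgeR, 1 had an unadjusted p under 0.05, and DESeq2 called 0.

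The corepressors and partners of these proteins changed in both directions, with 6 of 27 tested rising and 3 falling, beside 6.8% and 6.19% of all genes. Their median level was 154 CPM, against 29.1 CPM for all genes tested. These shares are not matched for level. MTA1, a subunit of the NuRD complex, had 138, 148 and 139 CPM in mimic and 106, 111 and 112 CPM in mock (log2 fold change 0.37, adjusted p 2.86e-07 by edgeR). The histone deacetylase HDAC1 had 203, 202 and 205 CPM in mimic and 168, 164 and 172 CPM in mock (0.27, adjusted p 2.18e-05). CBX5, the heterochromatin protein HP1 alpha, rose to 260 ± 13.7 CPM in mimic, against 218 ± 7.47 CPM in mock. CTNND1, the p120 catenin that binds Kaiso, fell to 167 ± 1.70 CPM in mimic, against 198 ± 5.44 CPM in mock. The BTB partner BCOR rose as well, with 230 ± 17.2 CPM in mimic and 204 ± 7.47 CPM in mock. The call of BCOR was lost without the third mimic library (0.124), the first mock library (0.128) or the third mock library (0.0632) and by DESeq2 (0.0848). TBL1X, a subunit of the NCOR1 complex, was another rise, with 41.4 ± 2.43 CPM in mimic and 33.9 ± 3.76 CPM in mock (adjusted p 0.0133 by edgeR), lost without the second mock library (0.168) and by DESeq2 (0.0981). The acetyltransferase gene EP300 was among the falls, with 279 ± 29.3 CPM in mimic and 310 ± 9.11 CPM in mock (adjusted p 0.0449 by edgeR). Its groups overlapped. Its call was lost with a mean of at least 5 CPM (0.0515), by DESeq2 (0.148) and when any library other than the third mimic was left out (0.0637 to 0.316). TRIM28, the KRAB corepressor, had 658, 608 and 604 CPM in mimic and 704, 647 and 669 CPM in mock, with an adjusted p of 0.0952 by edgeR.

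Of 10 genes described as targets of members, 7 were tested, 2 rose and 2 fell, beside 13.0% of all genes that passed in either direction. The median level of those tested was 111 CPM, against 29.1 CPM for all genes tested, and the shares are not matched for level. CDKN1A, described as repressed by ZBTB5 and ZBTB2, had 177, 182 and 180 CPM in mimic and 231, 216 and 233 CPM in mock, well apart (log2 fold change -0.34, adjusted p 2.45e-07 by edgeR). CDKN2B, which MIZ1 activates, had 103 ± 3.36 CPM in mimic and 118 ± 4.18 CPM in mock (-0.20, adjusted p 0.00981 by edgeR, and 0.0920 without the first mimic library, 0.0770 without the third mock library and 0.0520 by DESeq2). CDCA7, which ZBTB24 activates, had 60.5 ± 2.43 CPM in mimic and 50.03 ± 2.98 CPM in mock (0.27, adjusted p 0.00512 by edgeR, and 0.0602 without the third mock library), while ZBTB24 itself did not pass. ULK1, an autophagy kinase gene repressed by ZKSCAN3, had 135 ± 4.80 CPM in mimic and 120 ± 0.983 CPM in mock (0.17, adjusted p 0.0254 by edgeR), and its call was lost with GC and length offsets (0.155), by DESeq2 (0.113) and in 4 of the 6 analyses that left out a library (0.0671 to 0.181). The fetal globin gene HBG1 and AFP, targets of ZBTB7A and ZBTB20, had no count. The other tested genes of this list did not pass. Of the members named here as regulators, ZBTB5 passed and the others did not. Links between these genes and the members were not tested.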

How the data were processed

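The deposited values were raw counts, given as whole numbers for each Ensembl gene in a table for each library, and not normalized by the authors. STAR, edgeR and the build hg19 are named in the submitters' processing notes, without versions. The sources used here do not give the counting program, annotation or strand setting. Genes that a table did not list were set to 0. Symbols came from a gene name table (25141 of 26613 genes) and GENCODE release 29 (25236), and coordinates are GRCh38, not the authors' hg19.

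Genes passing edgeR's filterByExpr (15607, with 99.7% of counts) were scaled with TMM factors (0.994 to 1.01) and tested with edgeR's robust quasi-likelihood test by group, two-sided, adjusting p by Benjamini-Hochberg over these genes, with a threshold of 0.05. CPM values carry the SD of 3 libraries, and log2 fold changes their standard error. The variance between same-group libraries was 1.29 to 2.51 times that of sampling, and between libraries of different groups 3.83 to 5.15 times. The fit's common coefficient of variation beyond sampling was 3.82%. Each library counted as 1 replicate. These values alone cannot show that transfections were independent. The 95% intervals use a normal distribution and a standard error derived from the test statistic. They ignore the test's degrees of freedom, so they are somewhat too narrow. Intervals and the 3-count limit do not cover error before counting. The software was edgeR 4.0.16 and DESeq2 1.42.0 in R 4.3.3, with mgcv 1.9.3 for the GC and length offsets, and Python 3.11.15.

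The members, lists, tests and alternatives were chosen with earlier results of these data known. Named genes were members that passed, the 3 per family with the highest level per length, the 3 per family nearest the threshold, members with known roles, and up to 4 changed genes per list. Others named were chosen after their values were seen. ZBTB9, ZBTB12, ZBTB22 and ZBTB8B were not analysed here. Some list genes and 1 seed match are not reported here.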

Additional observations from a re-analysis of the deposited data

How the results depend on the processing

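Of the 10 members called, ZKSCAN1, ZKSCAN2, ZSCAN29 and ZBTB5 passed in all 13 alternatives (highest adjusted p 0.0204), and no value of a member that passed changed sign. DESeq2's Wald test called 1015 genes in all, against 2027 with edgeR, 1 BTB gene in all and 0 BTB genes that fell (3 lower at an unadjusted p under 0.05). Leaving out 1 library at a time gave 1302 to 2061 genes in all, 3 to 6 SCAN genes (3 to 5 rose and 0 to 1 fell), and 2 to 3 BTB genes (1 to 2 rose and 1 to 2 fell). The lowest SCAN count came without the first mock library, and the medians ranged over these analyses from 0.028 to 0.104 for SCAN genes and from -0.058 to -0.015 for BTB genes. DESeq2's size factors in edgeR, no low-count filter, a mean of at least 5 CPM, and GC and length offsets kept each family's count within 1.5 times. Of 644 comparisons of a gene with an alternative in which neither value passed, 32 changed sign. The cause of each lost call was not tested beyond the smaller number of libraries. With replicate number as a block, 1819 genes, 6 SCAN genes and 3 BTB genes were called, and 2137 genes with GC and length offsets as well. Same-numbered libraries deviated with correlations of 0.04, -0.05 and -0.02, so no shared deviation was seen. With 3 libraries per group, these values cannot show whether same-numbered libraries were handled together. Genes near 5 CPM and below, such as ZKSCAN7 and ZBTB16, had intervals too wide to tell small changes at this depth.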
